A study of Mus musculus with 5 samples.

Results

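The transcripts of the dorsal lateral geniculate nucleus (dLGN) were described in newborn mice from the 3 control arrays of the series, out of 5 arrays in all. The members were chosen by their label as heterozygous controls, so none was picked by a measured value. Each array holds RNA of dLGN tissue dissected on postnatal day 0 and pooled, per the series description, from pups of several litters. The control pups were heterozygous for Sema6a, with 1 working copy of the gene, on a C57BL/6 background, so this baseline is that of a heterozygote and not of a wild-type animal. The other 2 arrays, from Sema6A-/- pups, were not used. The labels do not name sex, and pooling leaves 1 value per pool, so the spread given below is that between pools and not between pups. In bulk tissue, fewer cells of a type and less RNA per cell cannot be told apart.

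The dLGN relays visual signals from the retina to the visual cortex. Its relay neurons are glutamatergic and arise in the caudal thalamus under transcription factors of the Tcf7l2, Lef1, Lhx and Gbx2 programmes, and around birth their axons are still growing and sorting in the cortex. Sensory relay neurons of this age take up serotonin through a transporter that they lose later. Astrocytes, oligodendrocyte precursors and microglia are still immature at birth, and the few local GABAergic interneurons reach the nucleus from outside.

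Signal was read for 18193 genes, each through its brightest single-gene probe set by the mean of the control arrays. Values are log2 expression values (RMA), and gene means ran from 1.73 to 14.43 with a median of 8.29. Arrays give no direct level of zero, so 69 genes of olfactory and vomeronasal receptors, which serve the nose, stood for signal without transcript. Their median was 2.82, and their 95th percentile, 4.80, was taken as the background threshold. The 27 probe sets for bacterial transcripts on the array gave a similar picture, with a median of 2.91 and a highest mean of 4.88. By this threshold 14135 of 18193 genes (77.7%) lay above background and 4058 (22.3%) near it. In 626 genes the pools fell on both sides. With the 99th percentile of the same receptors, 6.23, as the threshold, 6286 genes lay near background, so the class between these values is the least certain. Between genes, array signal also depends on how well each probe set binds its transcript, so a rank below is a rank of signal and not of transcript number.

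**Figure D1:**
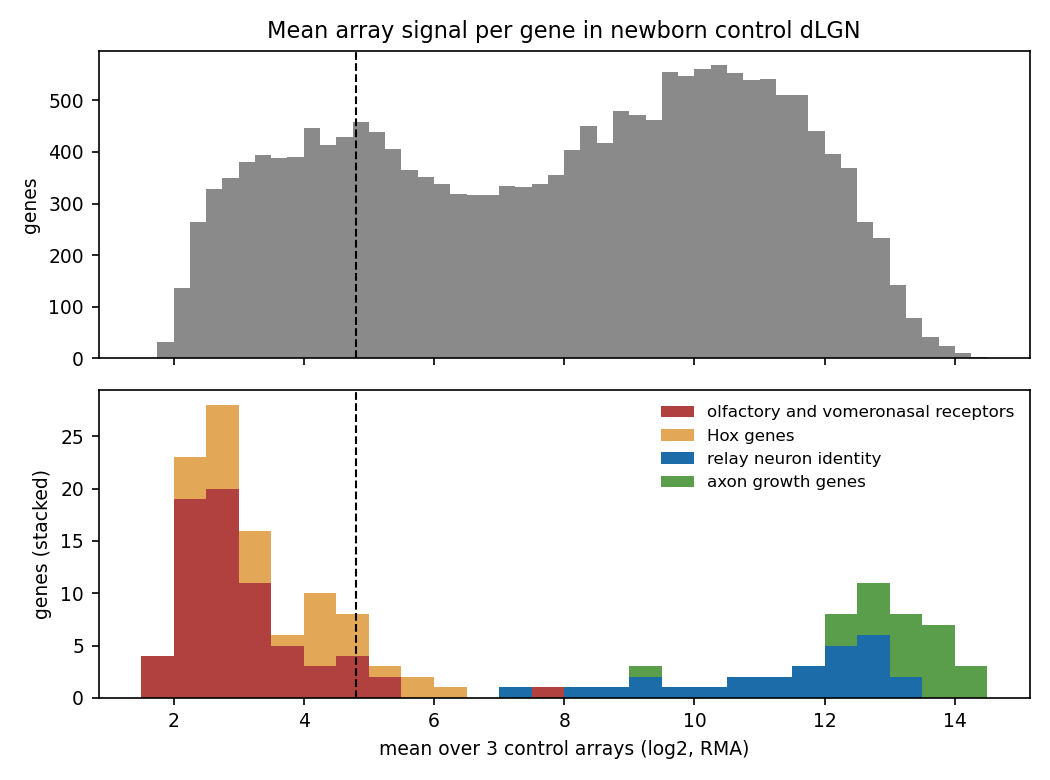
Mean log2 signal over the 3 control arrays (horizontal axis) against the number of genes, for 18193 genes above and for 4 gene lists, stacked, below. The dashed line is the background threshold of 4.80: receptor and Hox genes lie mostly to its left, and all genes of relay identity and axon growth to its right.

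The 6 markers of the nucleus were all above background, 4 of them well above the median of all genes and Gbx2 and Lhx2 below it. Lef1, a partner of beta-catenin in thalamic neurons, read 12.99, 12.78 and 12.89 in control pools 1, 2 and 3. Tcf7l2, the transcription factor that holds thalamic relay identity, read 12.86, 12.92 and 12.74. For both genes the pools lay within a range of 0.21. Cck, which encodes the neuropeptide cholecystokinin, read 11.90, 11.81 and 11.90. Slc6a4, the serotonin transporter, read 10.60, 10.85 and 10.74. These 4 genes ranked between 394 and 4139 of 18193. Lhx2, a LIM homeobox gene of early thalamus, was dimmer at 7.14, 7.39 and 7.89.

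Gbx2, a homeobox gene of thalamic neurons soon after they leave the cell cycle, stood apart among the markers. The gene lies on chromosome 1 (GRCm38.p6, 89927962 to 89931176). It read 6.95 in pool 1, 8.86 in pool 2 and 8.64 in pool 3, with a mean of 8.15 ± 1.05 (SD, n = 3). Pool 2 exceeded pool 1 by 1.91 on the log2 scale, a 3.76-fold difference, and the gene has a single probe set here. Sema6a, the gene for which the mice were heterozygous, read 10.47, 10.65 and 10.39, so its pools differed by at most 0.26.

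The highest signal belonged to genes of the growing cytoskeleton and of the ribosome. Tmsb10, an actin-sequestering thymosin, ranked at the top with 14.38, 14.46 and 14.46. It was followed by Rpl41 of the large ribosomal subunit (14.25, 14.26 and 14.32) and by Stmn1, which binds free tubulin (14.27, 14.26 and 14.25). Tuba1a, the main alpha-tubulin of young neurons, read 14.23, 14.19 and 14.18, and Basp1, a membrane protein of growth cones, read 14.18, 14.18 and 14.14. The pools differed by 0.08 or less in each of these 5 genes. Their order is that of array signal only.

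Among the 30 genes of highest mean, from 13.79 to 14.43, the widest range between pools was 0.23 and the median range 0.07. They held the actin regulators Cfl1, Pfn2 and Tmsb4x, the beta-tubulins Tubb2a and Tubb2b, the translation factor Eef1a1 and the 14-3-3 protein gene Ywhae. They also held Vdac1, the pore of the outer mitochondrial membrane, and Gnb1, a G protein subunit. Ndn, an imprinted gene of postmitotic neurons, read 13.96, 13.90 and 13.90. Hmgcs1, an early enzyme of cholesterol synthesis, read 13.88, 13.94 and 13.85. The others were Rpl35, Rplp2, Selenow, Pebp1, Rpl38, Rpsa, Rpl4, Rps28, Nrep, Cox7a2, Cox5b, Rpl19, Rpl6 and Mrfap1.

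**Figure D2:**
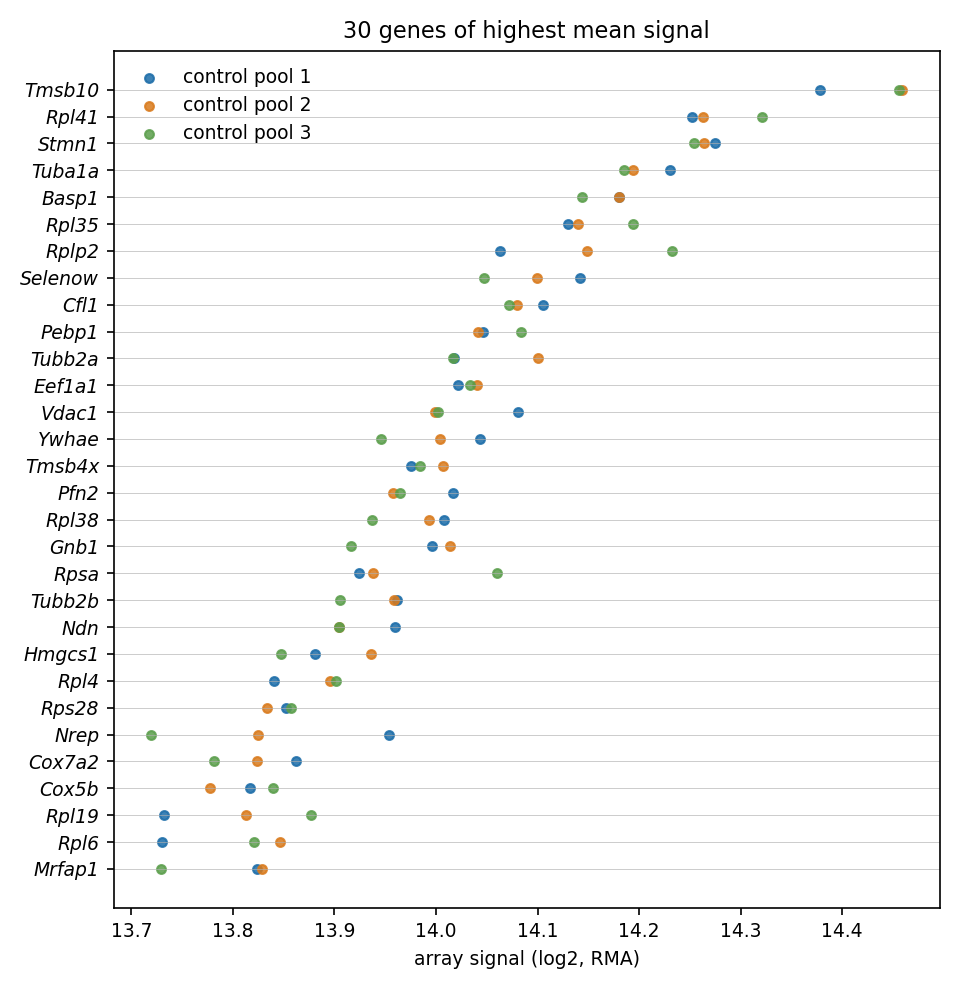
Log2 signal (horizontal axis) of the 30 genes of highest mean, 1 point for each control pool. The axis spans less than 1 unit, and the widest range of a gene is 0.23.

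By family, stathmins came highest of the 62 lists examined, with a median of 13.62 over 4 genes, and 14-3-3 genes followed with 13.44 over 6. Both lists were added after levels were seen, so their places are a description only. All 4 stathmins are also on the list of axon growth genes. The 48 ribosomal protein genes had a median of 13.35, and 22 of them were among the 100 brightest genes. The 25 genes of axon growth had a median of 13.18 and 11 of the 100 brightest genes. All 25 were above background, against 77.7% of all genes. Dpysl2, a collapsin response mediator, read 13.70, 13.69 and 13.68, and Ncam1, a neural adhesion molecule, read 13.67, 13.66 and 13.57. Gap43, a growth cone protein, read 12.83, 12.90 and 12.67, and the cannabinoid receptor gene Cnr1 was the dimmest of the list at 9.44, 9.40 and 9.65. The median range of the axon growth genes between pools was 0.11.

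Other bright families served energy and protein turnover. The 94 genes of oxidative phosphorylation had a median of 12.34, the 40 proteasome genes of 12.24, the 19 hnRNP genes, which bind nascent RNA, of 12.13, and the 13 glycolytic genes of 12.09. All glycolytic and hnRNP genes were above background, against 77.7% of all genes, and a few members of the other families were not, or barely. Ndufb4, at 2.67, 2.63 and 2.43, was the only oxidative phosphorylation gene near background. Cox8b, a muscle form of a cytochrome oxidase subunit, had a mean of 4.84, and Psmb11, the thymus form of a proteasome subunit, of 4.15. Among ribosomal genes, Rps16 read 2.30, 2.46 and 2.40 and Rpl39 read 6.31, 6.27 and 6.24, although ribosomes need both. A low reading on one probe set does not show that a transcript is absent.

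Grouped by the letters before the first digit of the symbol, 245 stems had 10 or more genes. The brightest were Rpl (median 13.41), Rps (13.10), Psmb (12.46), Ndufb (12.43), Ndufa (12.26), Psmd (11.80), Atp (11.64), Eif (11.54), Trappc (11.35) and Sf (11.34). In 64 stems every gene was above background. Such stems are names and not always related genes.

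The level of a gene went with the base composition of its promoter. RefSeq promoters of GRCm38.p6, from 250 bases before to 50 after the start, were matched for 14368 of 18193 genes, with a mean over the promoters listed for a gene. Genes near background had a median of 4 CpG dinucleotides in these 300 bases. Genes above background were split into 3 groups at levels of 8.09 and 10.47, and the median was 13 in the lowest group, 21 in the middle group and 23 in the highest. Ribosomal protein genes had a median of 22.5. The median over all matched genes was 17. Promoters are printed below for a growth cone gene and a ribosomal gene among the 5 brightest genes. Those of the dimmest keratin-associated and prolactin family genes follow, and all were chosen after their values were seen. Basp1, with 38 CpG, shows the CpG-rich side of the contrast, whereas Rpl41, with 16, lies below the median of all matched genes. CpG dinucleotides are in capitals.
Basp1, chr15:25413715-25414014, minus strand, 38 CpG: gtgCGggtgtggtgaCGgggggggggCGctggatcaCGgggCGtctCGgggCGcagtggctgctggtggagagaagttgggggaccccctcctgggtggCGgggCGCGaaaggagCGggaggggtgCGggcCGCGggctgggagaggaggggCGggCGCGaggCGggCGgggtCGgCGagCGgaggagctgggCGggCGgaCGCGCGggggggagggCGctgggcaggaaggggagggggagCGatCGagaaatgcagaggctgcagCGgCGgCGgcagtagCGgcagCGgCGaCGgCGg
Rpl41, chr10:128549119-128549418, minus strand, 16 CpG: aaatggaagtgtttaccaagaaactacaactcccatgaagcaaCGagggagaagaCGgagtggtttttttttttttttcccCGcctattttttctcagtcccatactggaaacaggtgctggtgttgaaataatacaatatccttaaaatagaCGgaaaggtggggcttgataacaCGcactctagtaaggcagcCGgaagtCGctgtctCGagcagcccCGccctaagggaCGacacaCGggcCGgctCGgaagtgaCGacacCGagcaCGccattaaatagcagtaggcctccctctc
Krtap4-2, chr11:99635035-99635334, minus strand, 0 CpG: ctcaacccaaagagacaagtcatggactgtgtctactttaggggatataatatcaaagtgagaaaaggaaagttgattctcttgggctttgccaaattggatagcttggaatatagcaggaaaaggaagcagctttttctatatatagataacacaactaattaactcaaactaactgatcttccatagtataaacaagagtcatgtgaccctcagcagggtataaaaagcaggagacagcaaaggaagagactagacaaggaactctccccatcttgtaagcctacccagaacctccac
Prl3c1, chr13:27196410-27196709, plus strand, 0 CpG: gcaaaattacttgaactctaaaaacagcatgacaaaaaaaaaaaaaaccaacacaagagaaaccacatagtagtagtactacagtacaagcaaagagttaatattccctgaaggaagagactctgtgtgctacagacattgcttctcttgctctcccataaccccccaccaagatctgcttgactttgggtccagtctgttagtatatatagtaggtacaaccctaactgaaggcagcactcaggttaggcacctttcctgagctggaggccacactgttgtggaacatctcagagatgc

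The mean signal of Basp1 was 14.17 and that of Rpl41 14.28, against 1.90 for Krtap4-2 and 2.08 for Prl3c1. The letters TATAAA, searched on both strands, stood in 19.4% of promoters of genes near background and in 6.42% of those of the highest group. These shares are means over genes, and that of all 14368 matched genes was 9.91%. Counted by entry instead, TATAAA stood in 13.6% of all 32851 listed promoters. CCGGAAG, the core bound by ETS factors, stood in 4.01% and 18.8% in the same order, and in 45.2% of the promoters of ribosomal protein genes. Its share was 13.7% over all matched genes and 8.86% of all listed entries. CCAAT stood in 38.7% and 36.8%, against 38.0% over all matched genes and 37.4% of all listed entries. CCGGAAG and CCAAT were also searched on both strands, and no motif holds another. A match is a description of the sequence and says nothing of what binds there.

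Most genes of relay neuron identity were bright, with Lhx2 and Gbx2 below the median of all genes. All 27 measured members were above background, against 77.7% of all genes. Their median was 11.99 (10.19 with the probe sets of each gene averaged), with values from 7.47 for Lhx2 to 13.35 for Zic1. Zic1, a zinc finger factor of dorsal brain, read 13.44, 13.36 and 13.26. The nuclear receptor genes Nr2f1 and Rora read 13.06, 12.96 and 12.96 and 12.68, 12.63 and 12.58, and Foxp2, a forkhead factor of thalamic neurons, read 12.36, 12.47 and 12.33. Ntng1, a netrin-like membrane anchor of thalamocortical axons, read 13.07, 13.08 and 13.03. Each of these genes differed between pools by less than the 0.26 that was the median range over all genes above background. Calb2, the calretinin gene, read 10.19, 11.15 and 11.32, with pool 1 below the others as for Gbx2. These were the 2 members of 27 (7.41%) whose range reached 1, against 1.45% of all genes above background.

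Transcription factor families held both bright members and members near background. Of all genes 77.7% were above background, and the family counts here stand beside that share. Of 19 Sox genes 18 were above background, led by Sox11, a factor of newborn neurons, at 13.81, 13.85 and 13.71, and Sox2 at 12.67, 12.54 and 12.54. Of 12 LIM homeobox genes 6 were above, with Lhx9, a thalamic member, at 12.27, 11.98 and 12.003 and Isl1, a factor of ventral forebrain, at 3.88, 4.35 and 3.54. The 6 Dlx genes, which specify forebrain GABAergic neurons, were all near background, from 3.55 to 4.63. Pax6 read 6.93, 6.58 and 7.17, and 3 of 8 Pax genes were above background. Pou2f2 led the Pou family at 12.37, 12.57 and 12.45.

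Hox genes, which pattern the hindbrain and spinal cord and are silent in forebrain, had a median of 3.41, and 6 of 33 were above the threshold. The highest of these was Hoxa7 at 6.06, 5.91 and 6.06, below the stricter threshold of 6.23. The share of Hox genes above background was 18.2%, against 77.7% of all genes.

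The glutamate carrier gene Slc17a6 was bright. Among monoamine carrier genes Slc6a4 and Slc18a2 were bright, whereas Slc6a3, Slc18a1 and Slc6a2 had means of only 5.57, 5.30 and 4.84. Slc17a6, the vesicular glutamate transporter of thalamus, read 12.9997, 12.90 and 12.96, and Slc17a7, the form typical of cortex, read 6.31, 6.26 and 6.84. Slc6a4 is given above, and Slc18a2, which loads monoamines into vesicles, read 12.52, 12.50 and 12.28. Of 10 enzymes of transmitter synthesis 7 (70.0%) were above background, close to the 77.7% of all genes. Tph2, which makes neuronal serotonin, read 4.43, 4.22 and 4.42, and Th, which makes catecholamines, read 4.33, 3.94 and 4.00. Htr1b, a presynaptic serotonin receptor, read 11.59, 11.53 and 11.75. Ddc, which acts after both Tph2 and Th, read 7.21, 7.51 and 7.83. Thus Slc6a4 and Slc18a2 were bright while the 2 rate-limiting neuronal enzymes Tph2 and Th were near background by this threshold. Tph1 and Dbh, on the same list of enzymes, were above it with means of 5.81 and 5.07.

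Receptor and channel genes differed widely between forms of a family. Grin2b, the NMDA receptor subunit prominent before and around birth, read 12.38, 12.41 and 12.40, and Grin2a, which rises later, read 3.73, 3.57 and 3.67. For Grin2b a further probe set had a mean of 12.22 and another pair lay at 5.32 and 3.82, so the low reading of Grin2a, which has a single probe set, cannot be set firmly against it. Gria2, an AMPA receptor subunit, read 12.49, 12.47 and 12.36. Glra2, the fetal glycine receptor subunit, read 12.65, 12.64 and 12.68, and Glra1, the adult one, 3.94, 4.13 and 3.87. Both chloride carriers were bright, Slc12a2 at 11.86, 11.68 and 11.69 and Slc12a5 at 12.53, 12.37 and 12.83. Gabra6, a subunit of cerebellar granule cells, was near background at 2.50, 2.61 and 2.61. All 19 measured voltage-gated channel genes were above background, against 77.7% of all genes, with a median of 10.52. They were led by the embryonic sodium channel gene Scn3a with a mean of 12.18.

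Of 31 semaphorins, plexins and neuropilins 29 (93.5%) were above background, against 77.7% of all genes, with a median of 9.67, Sema4g and Plxna1 highest with means of 12.28 and 12.23, and Plxnb3 and Sema3d near background. Of 21 ephrins and Eph receptors 19 (90.5%) were above, with Epha4 highest at 12.40 and Efna4 lowest at 4.52. Sema3c was the 1 gene of both lists whose pools differed by 1 or more, against 1.45% of all genes above background.

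Neuropeptide genes spanned the whole scale. The 29 measured had a median of 7.005, and 24 of them (82.8%) were above background, close to the 77.7% of all genes. The granin-like gene Vgf read 13.38, 13.36 and 13.42, Chgb 12.42, 12.47 and 12.74, and Scg2 12.08, 12.59 and 12.56. Vip, at 2.84, 2.15 and 2.18, and Tac2, at 3.07, 3.16 and 3.32, were near background. Of the 24 genes, 5 (20.8%) varied by 1 or more, namely Npy, Pmch, Nts, Penk and Grp, against 1.45% of all genes above background. At the level of Grp, below 6, 4.13% of genes varied so, and from 6 to 8, where the others lie, 3.29%. Grp read 4.45, 5.63 and 4.68 and was among the 24 through its value in pool 2 alone.

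**Figure D3:**
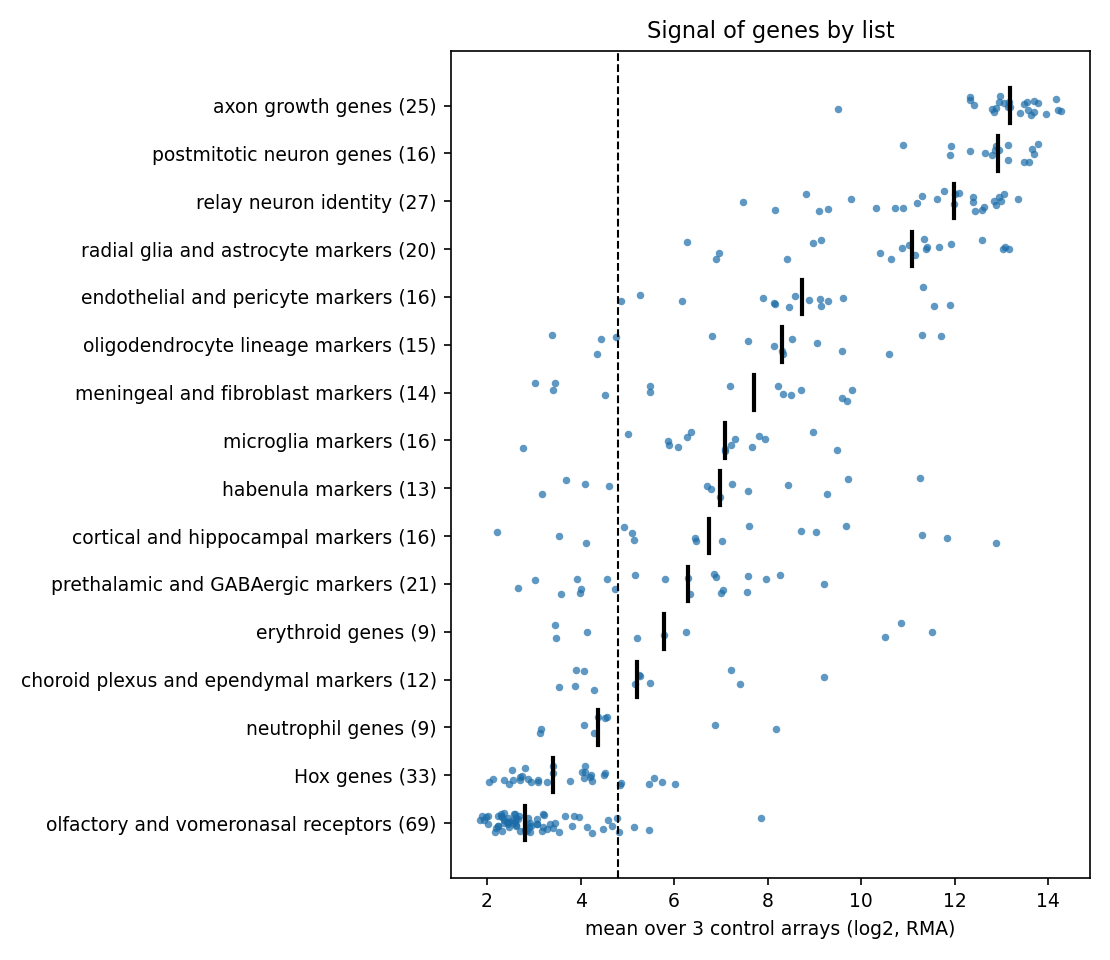
Mean log2 signal over the 3 control arrays (horizontal axis) of each gene, by list, with the number of genes measured in brackets and a black bar at the list median. The dashed line is the background threshold of 4.80; lists of neurons, relay identity and radial glia have medians above 11 on the brightest probe sets, and those of neutrophils, Hox genes and nasal receptors lie below the line.

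Non-neuronal cells were represented to different degrees. The counts above background given here stand beside 77.7% of all genes. The 20 radial glia and astrocyte markers were all above background with a median of 11.09, or 8.65 with the probe sets of each gene averaged. Fabp7, a fatty acid carrier of radial glia, read 13.24, 13.12 and 13.14, and Slc1a3, a glial glutamate transporter, read 12.001, 11.9995 and 11.77. Endothelial and pericyte markers were likewise all above, 16 of 16, with a median of 8.73. Of 15 oligodendrocyte lineage genes 11 (73.3%) were above. Pdgfra, the receptor of the precursors, read 11.42, 11.21 and 11.29. Genes of myelin were mixed. Cnp, Mbp and Mag were above background with means of 11.71, 9.04 and 6.80, and Mog, Mobp and Cldn11 were near it. Microglia markers were above background in 15 of 16 genes, with a median of 7.09, Csf1r at 9.18, 8.61 and 9.10 and Cx3cr1 at 7.01, 7.31 and 6.91. Cell cycle genes were above background in 21 of 21, with Mki67, a marker of dividing cells, at 8.70, 8.54 and 9.24.

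Markers of neighbouring tissue were mixed. Of the cortical and hippocampal genes 13 of 16 (81.2%) were above background, close to the 77.7% of all genes. Neurod6 of cortical projection neurons was near background, at 2.29, 2.21 and 2.13, as were Eomes and Fezf2, and Tbr1 read 6.50, 6.48 and 6.34. Cux2, on the same list, read 12.90, 12.91 and 12.83 and its other probe sets had means of 9.26 and 7.89. Habenular genes were above in 9 of 13 (69.2%), against 77.7% of all genes. Nhlh2, Chrna3 and Calb1 were brightest with means of 11.25, 9.71 and 9.26, and Tac2, Chat, Gpr151 and Chrnb4 were near background. The choroid plexus transport gene Ttr read 5.59, 5.47 and 5.41, and 7 of 12 genes of that list (58.3%) were above. Otx2 was the brightest of them with a mean of 9.21. Of 9 erythroid genes 6 (66.7%) were above background, and Hba-a1, Hbb-y and Epb42 were near it. The globin gene Hba-a2 read 11.32, 11.82 and 11.37 and Hbb-b2 10.79, 10.89 and 10.86, so these 2 globin genes gave signal in every pool. The neutrophil genes S100a9 and S100a8 were above background, at 8.61, 8.17 and 7.77 and 7.32, 6.84 and 6.48, and the other 7 of that list were near it.

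The families with the lowest signal were those of other organs. The dimmest symbol stems were Prl (median 2.65), Vmn (2.73), Ugt (2.75), Lce (2.86), Krtap (2.90), Olfr (2.90), Ceacam (2.97), Ccr (2.98), Sult (3.03) and Tmprss (3.03). The 17 prolactin family genes, of placenta and pituitary, and the 3 caseins of milk had 0 members above background. Single members of such families were nevertheless bright. Krt1, a keratin of skin, read 10.30, 10.38 and 10.47, Defa31, an intestinal defensin, 8.004, 7.96 and 7.85, and the receptor gene Vmn2r29 7.64, 7.91 and 7.996. Whether those probe sets read their own gene was not tested, and Defa31 is read by a set whose name marks it as open to related transcripts.

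Most genes hardly differed between the control pools. Over the 14135 genes above background the median range over the 3 arrays was 0.26, and the median SD fell from 0.19 for genes of level 6 to 8 to 0.07 for those above 12. In 205 genes (1.45%) the range reached 1, that is a 2-fold difference. Of genes below 6, 4.13% varied so, and of those above 12, 0.06%. Pool 3 stood apart as high in 57 of the 205 and pool 1 as low in 46, while the remaining 102 split over 4 other patterns of 20 to 28 genes. Without pool 1, 2 or 3, 89, 101 and 81 of the same genes varied, so no 1 pool makes up the set. Of the 205 genes, 55 had a further probe set above background, and the same pool was highest there in 30 of them and stood apart in the same direction in 26. The further probe set had a range of 1 or more in 13 of the 55, with a median range of 0.42. With 3 arrays of a single group there is no test of a difference between pools, and the values that follow are descriptions.

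**Figure D4:**
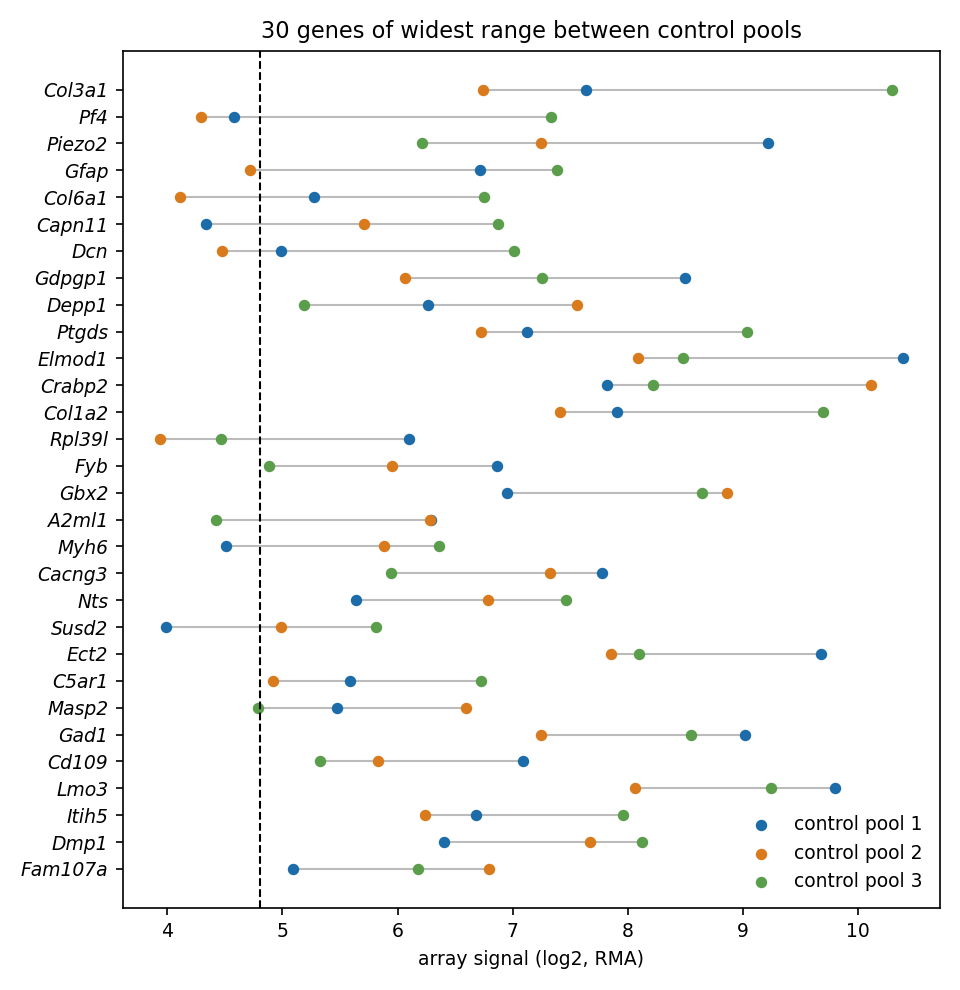
Log2 signal (horizontal axis) of the 30 named genes of widest range among those above background, 1 point for each control pool, with a grey line from the lowest to the highest and the background threshold of 4.80 dashed. Pool 3 is highest for the collagens, Pf4, Dcn and Ptgds, and pool 1 for Gad1, Lmo3, Elmod1 and Piezo2.

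Genes of fibroblasts and of the meninges, the connective tissue sheets around the brain, were highest in pool 3 for 8 of the 14 measured and in pool 2 for 5, against 40.5% and 27.8% of all genes measured. Col3a1, a fibrillar collagen, had the widest range of all genes, with 7.64 in pool 1, 6.74 in pool 2 and 10.29 in pool 3. That is an 11.7-fold difference between pools 2 and 3, and its further probe set read 4.25, 3.87 and 7.01 in the same order. Col1a2 read 7.91, 7.41 and 9.70, and the matrix gene Dcn 4.99, 4.47 and 7.01. Ptgds, a prostaglandin synthase abundant in the leptomeninges, read 7.12, 6.72 and 9.03. Of the 10 genes of the meningeal list above background, 6 had a range of 1 or more, against 1.45% of all genes above background. Dcn was among the 10 through its value in pool 3. Without pool 3, 1 of the 10 did, which was Crabp2. Crabp2, which carries retinoic acid, went its own way with 7.82, 10.11 and 8.22, highest in pool 2. Lum, Ogn, Slc22a6 and Aldh1a2 had means near background.

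Collagens and macrophage genes of brain borders, 2 lists added after levels were seen, were also mostly highest in pool 3. Of the 33 collagens above background, pool 2 was lowest in 23, against 38.0% of all genes above background. The 6 border macrophage genes above background were lowest in pool 1 in 3 and in pool 2 in 3. Of all 42 collagen genes measured, pool 3 was highest in 28, against 40.5% of all genes measured. Col4a1 and Col4a2, of vessel basement membrane, ranged by 0.23 or less. Pf4, a chemokine of platelets and border macrophages, read 4.58, 4.29 and 7.33, so pools 1 and 2 lay below the threshold and pool 3 above it. Mrc1, the mannose receptor of such macrophages, read 6.58, 6.15 and 7.10, and pool 3 was highest for 8 of the 9 border macrophage genes measured. Pf4 and Lyve1, at 4.63, 4.75 and 5.37, exceeded the threshold in pool 3 alone, and F13a1, the brightest of them, differed little, at 9.29, 9.32 and 9.43. Among the markers of parenchymal microglia, pool 3 was highest in 5 of 16.

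Most GABAergic genes above background were highest in pool 1 and lowest in pool 2. Gad1, which makes GABA, read 9.02 in pool 1, 7.25 in pool 2 and 8.54 in pool 3, a 3.41-fold difference between the extremes. Gad2 read 8.15, 7.04 and 7.56, and Slc32a1, the vesicular GABA transporter, 7.59, 6.39 and 7.12. Transcription factors of midbrain and thalamic GABAergic cells followed, with Tal1 at 8.33, 6.84 and 7.51 and Gata3 at 6.86, 5.69 and 6.35. Npy read 7.54, 6.12 and 7.37, and Meis2 7.14, 5.92 and 5.93. Of 13 members above background 7 had a range of 1 or more, pool 1 was highest in 11 and pool 2 lowest in 12, against 1.45%, 30.3% and 38.0% of all genes above background. With pool 1 left out 2 of the 13 varied, with pool 2 left out 1, and with pool 3 left out all 7. Gata2, at 7.85, 8.17 and 7.85, and Pax6, given above, were the 2 genes whose highest value was not in pool 1, and the Dlx genes and Isl1 of this list stayed near background in every pool. Lhx6 read 4.81, 4.74 and 4.63, at the threshold in pool 1. The further probe set of Gad1 lay near background with a mean of 4.44. A further probe set of Gad2 read 5.96, 4.61 and 5.23 in the same order, whereas those of Slc32a1 above background, with means of 6.16 and 6.13, did not put pool 1 highest.

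Several other genes had their highest value in pool 1. Lmo3, a LIM-only cofactor, read 9.80, 8.06 and 9.24, and Reln, an extracellular guide of migrating neurons, 9.13, 7.68 and 8.21. Lhx1, of the LIM homeobox family, read 6.35, 5.30 and 5.93. Piezo2, a mechanosensitive channel, read 9.22, 7.25 and 6.21 and Elmod1 10.39, 8.09 and 8.48. The cell division gene Ect2 read 9.68, 7.86 and 8.09. The cell cycle list as a whole did not follow, with pool 3 highest in 16 of 21, against 42.4% of all genes above background. Gbx2 and Calb2 had their lowest value in pool 1.

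Other lists leaned towards 1 pool to different degrees. Endothelial and pericyte markers were lowest in pool 1 in 13 of 16 genes, against 33.1% of all genes above background, with Cldn5, a tight junction gene, at 11.01, 11.35 and 11.58 and Pecam1 at 5.78, 6.44 and 6.26. Sterol synthesis genes were highest in pool 2 in 13 of 14, against 27.3% of all genes above background, with Fdps at 10.19, 11.37 and 10.29. The sterol list was added after levels were seen, so its count is a description only. The median deviation of this list in pool 2 was 0.19 above the mean of the pools. Radial glia and astrocyte genes were lowest in pool 2 in 14 of 20, against 38.0%. Gfap, the intermediate filament of mature astrocytes, read 6.72, 4.72 and 7.38 and the water channel gene Aqp4 11.37, 10.34 and 11.36. Among activity-regulated genes, pool 3 was lowest in 11 of 21, against 28.9%, with Fos at 8.80, 8.72 and 7.73 and Egr1 at 11.65, 11.73 and 11.06.

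**Figure D5:**
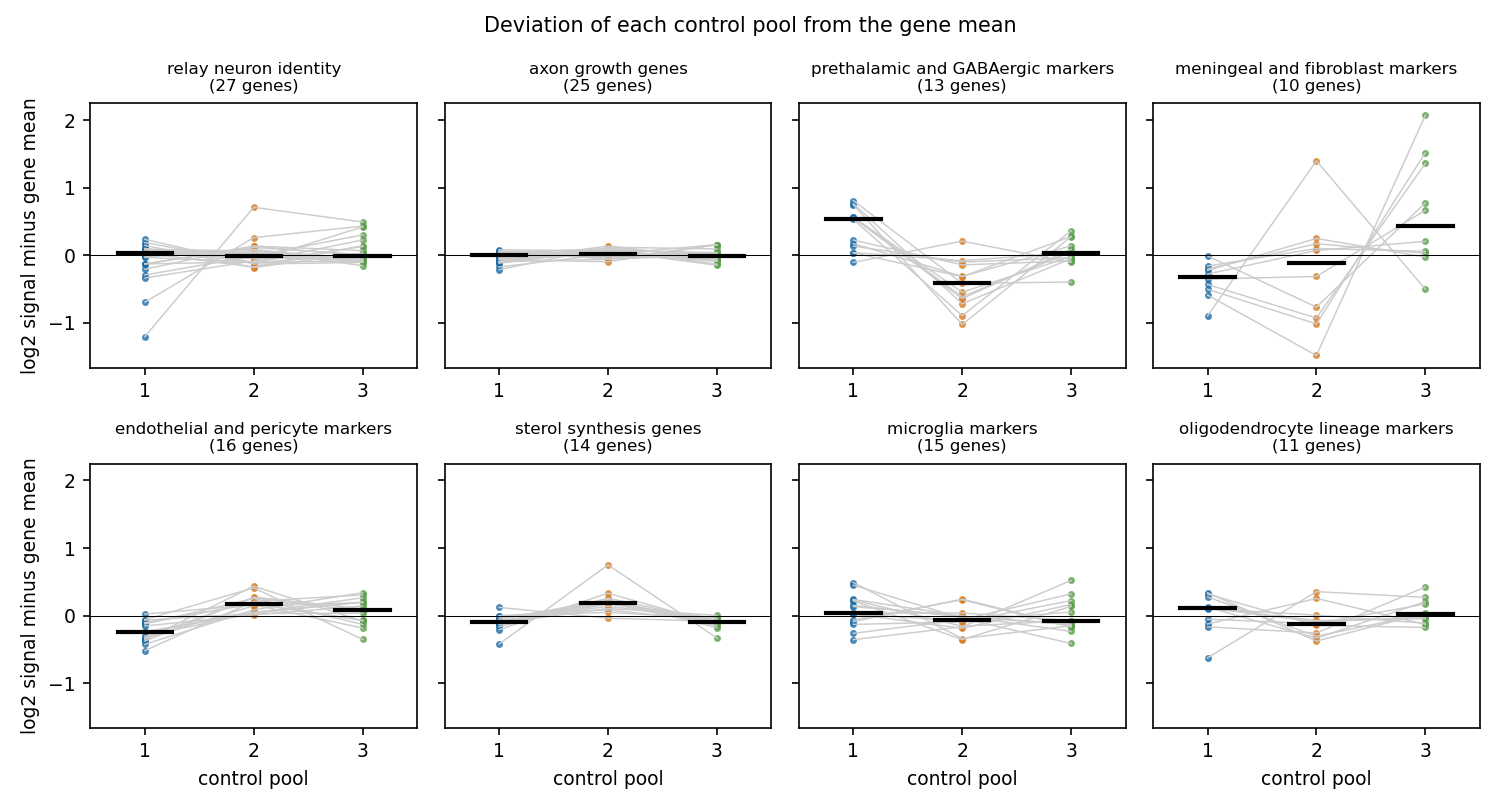
Log2 signal of each gene above background minus its mean over the pools (vertical axis) in control pools 1, 2 and 3, for 8 lists; grey lines join the values of a gene and black bars are medians. Axon growth genes stay near 0, as do most of relay identity apart from Gbx2 and Calb2 in pool 1, GABAergic genes have medians of 0.53, -0.41 and 0.04, and meningeal genes reach 0.44 in pool 3.

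Measures of RNA and of sex composition also differed between pools. The probe sets for the 3′ end of Actb exceeded those for the 5′ end by 1.45, 0.62 and 1.01 in pools 1, 2 and 3, and those of Gapdh by 1.24, 0.77 and 1.33, so pool 2 had the smallest gap in both. Xist, expressed from the inactive X chromosome of females, read 11.54, 11.22 and 10.79, and the Y-linked gene Eif2s3y 9.999, 10.22 and 10.66. Every pool thus held transcripts of both sexes, with Xist lowest and Eif2s3y highest in pool 3. The part of RNA quality, sex composition and neighbouring tissue in the differences between pools was not tested.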

How the data were processed

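Per the labels' protocols, dLGN tissue was dissected from sections of 200 µm, and 20 ng of total RNA was amplified and labelled with biotin for Affymetrix arrays. The authors deposited 1 log2 value for each probe set and array, computed with RMA per the submitters' processing notes. Its version is not given in the sources used here, and neither are its settings. RMA equalises distributions between arrays and compresses low values, so a change common to most genes would be lost. The number of arrays limits the precision.

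Of 45101 probe sets, 64 control sets were left out, 34945 of the rest had 1 gene in the platform annotation, 932 several and 9160 none. The values of the control arrays had medians from 6.40 to 6.41 and correlations between 0.994 and 0.995, so none was a copy. Means, SDs and ranges were computed with pandas 2.3.3 in Python 3.11.15 and checked on simulated data. Gene positions and promoters came from RefSeq tables of GRCm38.p6, where 18032 genes were found. No test was made. Named genes were the markers, the 30 of highest mean, the 30 of widest range, and the brightest, dimmest and most variable members of each list; some others were picked with their values in view. Of 62 lists, 18 were added after levels were seen, and the members and all lists were chosen with earlier results of these data known. The alternatives were other probe set choices, centring, quantile normalisation, other thresholds and leaving out each pool.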

Additional observations from a re-analysis of the deposited data

How the results depend on the processing

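No paired analysis was possible because 1 group was described and no result comes from a test. The count of genes above background stayed within 1.5 times of 14135 under every alternative run, from 11678 with the median of all probe sets as threshold to 14148 without pool 1. The count near background rose from 4058 to 6286 with the 99th percentile of the receptor genes and to 6515 with the median of all probe sets. With a threshold from the bacterial probe sets, an alternative chosen after seeing the data, 13998 genes lay above background. The choice of probe set changed the ranking. When each gene's probe sets were averaged, 48 of the 100 brightest genes were shared with those reported, and 130 instead of 205 genes varied between pools. Without the probe sets open to related transcripts, 74 of the 100 were shared. A range of at least 1.5 left 37 varying genes, and leaving out 1 pool left 78 to 105, with the threshold and the probe sets chosen anew. All 6 markers stayed above background under the 7 alternatives run for them, but with probe sets averaged Lef1 moved from 12.89 to 10.40 and Tcf7l2 from 12.84 to 11.60. The median moved by more than the spread between pools in 54 of 62 lists with probe sets averaged, by up to 2.78, and in 21 of 62 without the sets open to related transcripts. Actins and actin-binding genes then fell from 12.71 to 9.996. Signal near background limits the reading of genes below 6.23, where 2 thresholds disagree.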
